A study of Mus musculus with 6 samples.

Results

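The genes described here encode proteins by which neural stem cells are commonly recognised: *Nes*, *Vim*, *Prom1*, *Hopx*, *Msi1* and *Msi2*. Nestin and vimentin (*Nes*, *Vim*) are intermediate filament proteins of neural stem and progenitor cells, and an enhancer for neural progenitors is known in the second intron of *Nes*. Prominin 1 (*Prom1*, CD133) is a glycoprotein of membrane protrusions. The homeodomain-only protein (*Hopx*) binds no DNA itself and marks quiescent stem cells in several tissues. Musashi 1 and 2 (*Msi1*, *Msi2*) bind mRNA and act on its translation, that of *Numb* among others.

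The assay was ATAC-seq, which inserts adapters with a transposase where chromatin is open. It was run on neural stem cells grown from the subependymal zone (SEZ) of mice aged 10 weeks. All cultures were Srr2del/del, which means that a mouse line made with CRISPR-Cas9 lacked *Srr2*, an enhancer of *Sox2*. Proliferating cultures (PROLIF) had 2 days in vitro with mitogen, and early differentiating cultures (DIFF) had the same 2 days followed by 1 day without mitogens in medium with 2% serum. The days are those of the labels and the study's methods, while the series text gives 3 days for proliferating neurospheres. Each state had 3 libraries, numbered 1, 2 and 4. The states were compared within the mutant, and wild-type cells were not analysed here. The labels do not say whether replicates came from separate animals, so p-values measure the spread between these libraries.

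A window was the gene body with 50 kb on each side, and all peaks of the 6 lists that overlapped it were taken. Peaks that overlapped one another were merged into regions. The windows held 115 of the 119719 regions of the series. Over all 6 windows there were 9.91 regions per 100 kb, against 4.39 over the assembled chromosomes. The *Prom1* window, with 3.84, lay below the value of the chromosomes. The other windows lay above it, from 7.93 at *Msi1* to 13.7 at *Nes*. Windows around other genes were not compared, so a density particular to these genes was not tested. *Nes* is a plus-strand gene on chromosome 3 (GRCm38, from 87971078 to 87980451) and had 15 regions. *Vim*, on chromosome 2 from 13573927 to 13582826 on the plus strand, had 12 regions. *Prom1*, on chromosome 5 from 43993620 to 44102032 on the minus strand, had 8 regions. *Hopx*, on chromosome 5 from 77086988 to 77115121 on the minus strand, had 13 regions. *Msi1*, on chromosome 5 from 115429599 to 115455698 on the plus strand, had 10 regions. *Msi2* is the longest, on chromosome 11 from 88339382 to 88718513 on the minus strand, and had 57 regions, of which 53 overlapped the gene body. Other protein-coding genes lie in the windows too, among them 6 around *Nes* and 2 around *Msi1*, so a region in a window is not thereby a region of the gene it is counted with.

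The lists held 82741, 66643 and 60006 peaks in PROLIF and 71308, 70728 and 88039 peaks in DIFF, in the order of replicates 1, 2 and 4 that is used throughout. The longest were those of PROLIF replicate 1 and DIFF replicate 4. A list holds what passed the caller, so a library without a peak had a signal under the threshold, not closed chromatin. Strength is given as a percentile, the rank of a peak by −log10 p within its own list, with 100 as the strongest. In a bulk culture, fewer cells with a region open and less opening per cell cannot be told apart. The label of a neural stem cell culture was checked by promoter peaks, within 3 kb of a start site. *Sox2*, *Sox9*, *Pax6*, *Fabp7* and *Slc1a3*, markers of neural stem and progenitor cells, had one in all 6 libraries. The endothelial markers *Cldn5*, *Cdh5* and *Tie1* had none in any library and *Kdr* had one in all 6. Each library had a promoter peak at 3 or 4 of 5 microglial markers. Among these *Cx3cr1* had none in any library, and *P2ry12* ranked higher in PROLIF (difference in rank score, explained further on, -0.81, limma, adjusted p = 0.0111). Their part in the results was not tested. Neuronal markers (*Syt1* and *Snap25* of 3) and oligodendrocyte markers (2 of 4, *Mag* in none) were open in all 6 libraries as well, as was *Col1a1* among 3 markers of pericytes and fibroblasts.

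The sequences around the regions whose difference between the states was called under every setting in which it could be tested are given first. Each runs 100 bp to either side of the summit of the region's strongest peak, on the plus strand of GRCm38, and comes from the RefSeq genome. Capitals mark matches on either strand to short motifs, which are descriptions of letters and not binding sites. The first is the *Nes* intron 2 region, chr3:87974371-87974571, with TTCCCAC, the reverse complement of the RBPJ motif GTGGGAA, and with the E-box CAGATG.
Nes intron 2: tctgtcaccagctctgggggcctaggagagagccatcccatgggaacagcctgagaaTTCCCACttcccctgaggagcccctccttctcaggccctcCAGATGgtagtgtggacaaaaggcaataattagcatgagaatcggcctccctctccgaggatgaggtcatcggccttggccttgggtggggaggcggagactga
The stretch just before the *Nes* gene start, chr3:87970953-87971077, is shown beside it because it was open in both states, and it carries 2 copies of CCGCCC, the reverse complement of the SP motif GGGCGG.
Nes start: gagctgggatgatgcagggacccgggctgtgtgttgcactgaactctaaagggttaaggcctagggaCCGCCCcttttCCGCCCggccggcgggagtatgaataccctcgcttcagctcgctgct
The 2 regions in *Msi2* that were stronger in DIFF lay at chr11:88716152-88716352 in intron 4 and at chr11:88650381-88650581 in intron 5. Capitals in the first mark CCAAT (NFY), ACAAAG (SOX) and TTGGCA (NFI), and in the second TTGGCA, as its reverse complement, and ACAATG (SOX).
Msi2 intron 4: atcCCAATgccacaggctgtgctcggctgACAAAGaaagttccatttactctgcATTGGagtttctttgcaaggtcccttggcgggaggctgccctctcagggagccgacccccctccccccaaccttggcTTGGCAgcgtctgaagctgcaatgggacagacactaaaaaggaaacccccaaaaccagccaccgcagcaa
Msi2 intron 5: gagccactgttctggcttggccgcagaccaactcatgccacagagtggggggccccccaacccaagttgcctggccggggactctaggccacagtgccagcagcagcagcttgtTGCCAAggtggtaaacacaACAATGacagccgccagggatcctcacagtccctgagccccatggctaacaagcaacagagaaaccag
Those of the *Msi2* window that were stronger in PROLIF lay at chr11:88524825-88525025 in intron 6, with TGAGTCA, the reverse complement of the AP-1 motif TGACTCA, and at chr11:88330897-88331097 downstream of the gene, with 2 copies of the E-box CAGCTG and 1 NFI match.
Msi2 intron 6: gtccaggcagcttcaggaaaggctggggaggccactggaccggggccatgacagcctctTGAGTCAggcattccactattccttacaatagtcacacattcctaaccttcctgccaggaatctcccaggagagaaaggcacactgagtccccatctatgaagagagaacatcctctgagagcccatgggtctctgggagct
Msi2 downstream: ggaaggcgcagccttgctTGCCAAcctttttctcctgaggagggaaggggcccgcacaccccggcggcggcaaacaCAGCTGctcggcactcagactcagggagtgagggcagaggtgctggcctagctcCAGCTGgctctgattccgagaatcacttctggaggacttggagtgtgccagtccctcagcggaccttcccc
The remaining pair lay upstream of *Msi1*, at chr5:115398502-115398702, with 3 matches to ACAAAG, and upstream of *Vim*, at chr2:13558727-13558927, with no match to any motif searched.
Msi1 upstream: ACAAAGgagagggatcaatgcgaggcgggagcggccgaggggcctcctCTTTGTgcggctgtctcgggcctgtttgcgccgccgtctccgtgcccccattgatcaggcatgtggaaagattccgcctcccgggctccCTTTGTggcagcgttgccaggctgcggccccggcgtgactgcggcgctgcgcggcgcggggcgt
Vim upstream: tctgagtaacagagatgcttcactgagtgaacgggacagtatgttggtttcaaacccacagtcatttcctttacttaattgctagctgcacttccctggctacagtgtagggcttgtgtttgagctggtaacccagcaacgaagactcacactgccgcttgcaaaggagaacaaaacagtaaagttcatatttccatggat

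The 12 motifs searched were those named above together with ATGCAAAT (POU), ACATTCCA (TEAD) and TGACGTCA (CREB), and matches of different motifs may overlap. ACAAAG was found at 30 of the 115 window regions (26.1%) and at 20.2% of all regions of the series, and ACAATG at 19 (16.5%) and 11.6%. CAGCTG was at 25 (21.7%) against 19.6%, and CAGATG at 23 (20.0%) against 17.3%. The shares were 21.7% and 18.3% for TTGGCA, 32.2% and 25.5% for CCAAT, and 11.3% and 12.7% for GGGCGG. The RBPJ motif GTGGGAA was at 8 window regions (6.96%) and 4.54% of all regions, and TGACTCA at 5 (4.35%) and 5.76%. ATGCAAAT was at 4 window regions (3.48%) against 1.90% of all regions, ACATTCCA at 6 (5.22%) against 1.54%, and TGACGTCA at 1 (0.870%) against 0.672%. The median GC content of these stretches was 52.7% in the windows and 50.2% over all regions.

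To ask how much open chromatin each state had at these genes, window peaks were counted per library. PROLIF libraries held 85, 71 and 64 peaks in the windows and DIFF libraries 77, 79 and 95. The ranges overlapped, and the difference of 10.3 peaks was within the spread between libraries (73.3 ± 10.7 in PROLIF and 83.7 ± 9.87 in DIFF, SD, n = 3, two-sided exact permutation p = 0.400). With 3 libraries against 3, the smallest p of this test is 0.1. Numbers of the input data set, which stand in the names of the peaks, fell in 2 ranges, and the difference was 2.50 peaks among the libraries with lower numbers (PROLIF 1 and 4, DIFF 1) and 16.0 among the others. Scaled to list length, window peaks were 10.3, 10.7 and 10.7 per 10000 in PROLIF and 10.8, 11.2 and 10.8 in DIFF, with ranges that did not overlap (exact permutation p = 0.1). No single gene passed the test on peak number (exact permutation, adjusted p = 1.00 for each of the 6 genes). The size was largest at *Msi2*, with 37, 34 and 26 peaks in PROLIF and 39, 36 and 43 in DIFF.

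**Figure D1:**
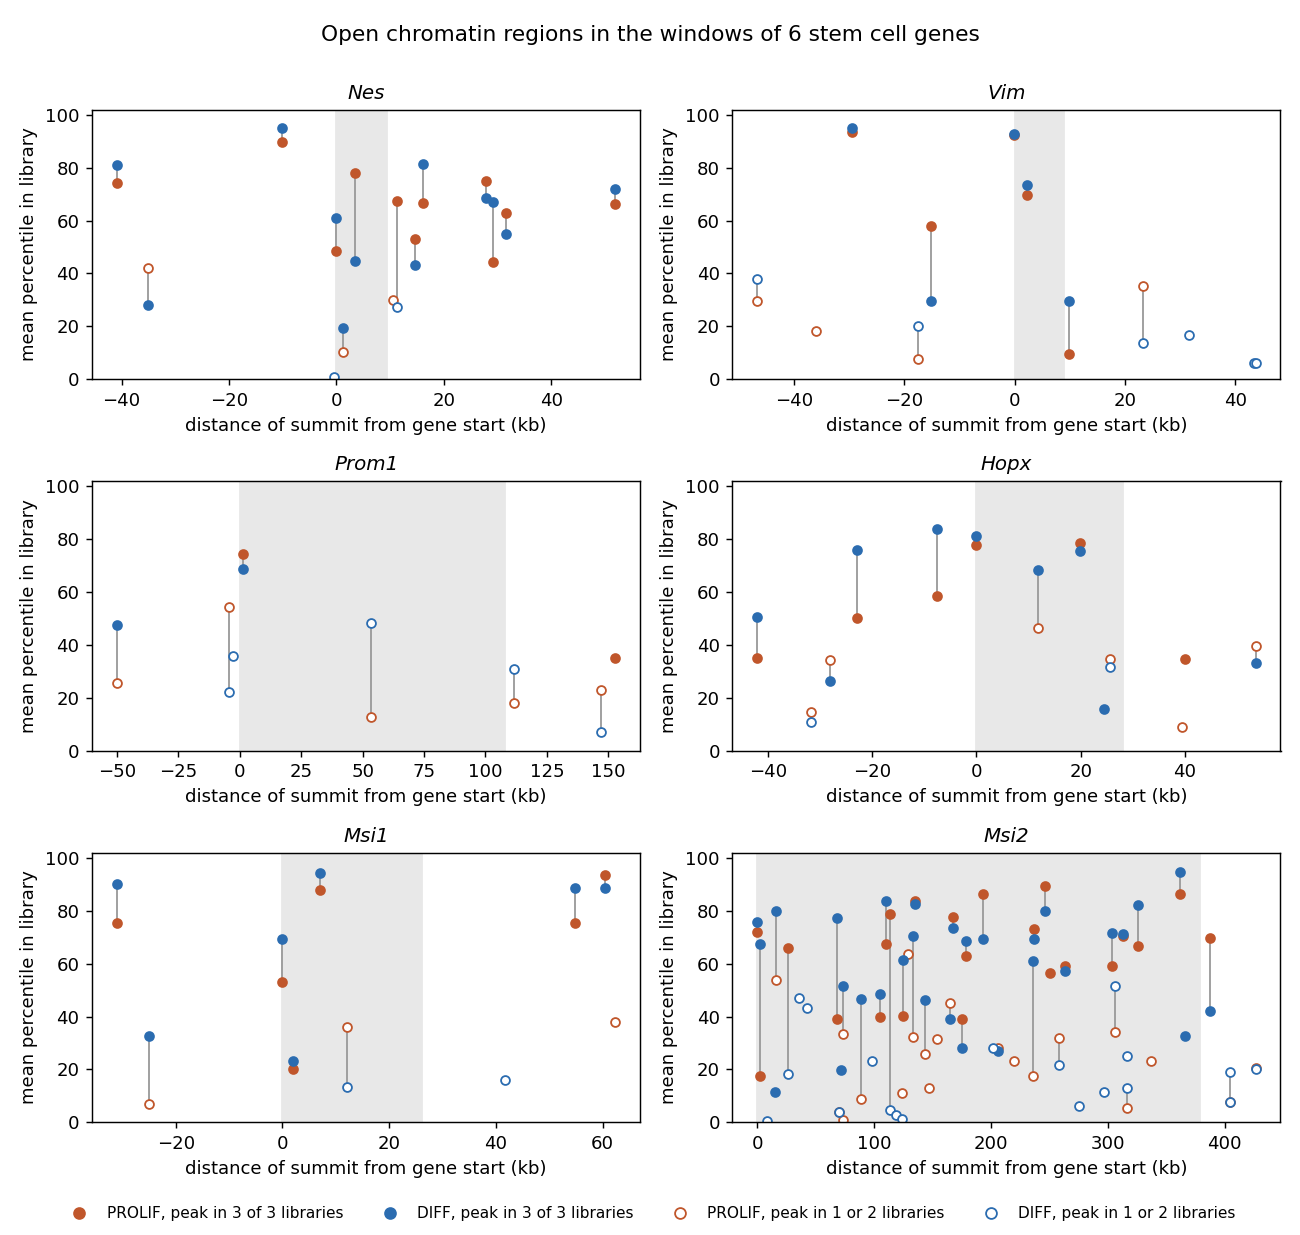
Regions in the 6 windows, by distance of the summit from the gene start in kb (x) and mean percentile of the strongest peak in its library (y), with the gene body in grey. Filled points are means over 3 libraries, open points over 1 or 2, and grey lines join the states. PROLIF lies above DIFF in intron 2 of *Nes*, at 78.0 against 44.7, and far below it 2.26 kb into *Msi2*, at 17.6 against 67.5.

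Regions shared by all libraries were the most frequent class of occupancy. A peak in all 6 libraries was found at 46 of the 115 regions (40.0%), against 33.5% of all regions of the series. *Nes* had 10 such regions, *Vim* 5, *Prom1* 1, *Hopx* 5, *Msi1* 6 and *Msi2* 19. Regions of 1 library numbered 20 (17.4%, against 29.6% of all regions), 7 of them in PROLIF replicate 1 and 7 in DIFF replicate 4, the longest lists. Regions in all 6 libraries were wide and strong, with a median width of 784 bp and a median percentile of 71.0, while those of 1 library had 129.5 bp and 9.86. The series was much the same, with 770 bp and 71.6 in all 6 libraries and 124 bp and 10.7 in 1 library. Of the shared regions 23 (50.0%) were near a start site (3 kb or less), against 47.0% over the series, and 24 (52.2%) were in introns, against 39.4%.

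A peak in every PROLIF library and in no DIFF library (PROLIF-only) was found at 3 regions (2.61%), against 1.79% of all regions. The reverse (DIFF-only) was found at 4 regions (3.48%), against 3.48%, so neither share stood far from that of the series. *Nes*, *Vim* and *Msi1* had no state-only region. The PROLIF-only regions were one beyond the end of *Prom1*, from 43948899 to 43949298, one beyond *Hopx*, from 77074973 to 77075384, and one in intron 7 of *Msi2*, from 88467785 to 88468245. The *Msi2* region was the strongest, at percentiles 65.4, 45.3 and 58.3. Those of *Prom1* reached 59.0, 19.9 and 26.0, and those of *Hopx* 38.7, 33.7 and 31.0. The DIFF-only regions had a median percentile of 18.6, against 38.7 for the PROLIF-only ones, with overlapping ranges. All 4 DIFF-only regions were intronic, against 55.5% of such regions over the series and 60.9% of all window regions. One lay in intron 2 of *Hopx*, from 77090609 to 77090967, at 10.4, 23.9 and 13.3. The others lay in *Msi2*, and the strongest of these, from 88351623 to 88352029 in intron 11, reached 40.0, 24.8 and 32.8. When same-numbered libraries were taken as pairs (the replicate block) and a region counted if 2 or more of the 3 pairs differed one way and none the other way, PROLIF-only regions numbered 5 (4.35%, against 6.30% of all regions) and DIFF-only regions 15 (13.0%, against 11.1%). With lists cut to equal length 2 DIFF-only regions were left (2.11%, against 3.92%), and with windows of 10 kb on each side 1 PROLIF-only region (1.23%, against 1.79%).

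**Figure D2:**
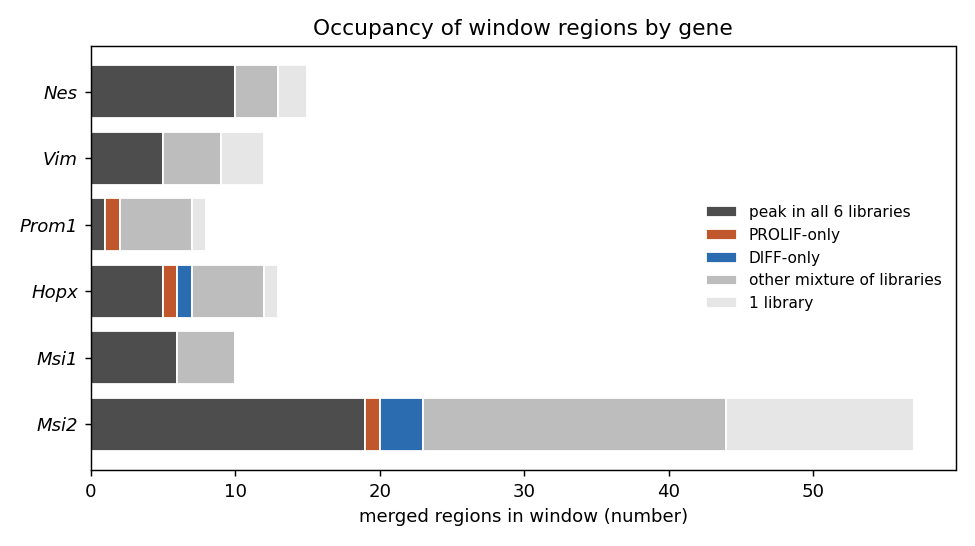
Number of merged regions (x) in the window of each gene (y), split by the libraries that had a peak. Regions in all 6 libraries number 10 at *Nes* and 19 at *Msi2*, and state-only regions, 3 of PROLIF and 4 of DIFF, are few at every gene.

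The strength of the shared regions was then compared. Within each library, the 40102 regions of the series with a peak in all 6 libraries were ranked by −log10 p of their strongest peak. The ranks were turned into normal scores, and limma tested the difference between the states on these regions. Percentiles are ranks within the whole list instead, so a small score difference and a small percentile difference can have opposite signs. A score difference of 1 is 1 SD of the normal scores, and adjusted p-values are Benjamini-Hochberg values over all those regions. Of the 46 window regions, 11 (23.9%) were called higher in DIFF, against 9.80% of all regions, and 6 (13.0%) higher in PROLIF, against 11.2%. The median score difference was 0.11 over the window regions and 0.046 over all regions tested. The 17 called regions kept their direction among the libraries with lower and with higher input data numbers, which is no separate support, since they were called on these same libraries. The number called higher in DIFF fell to 5 without DIFF replicate 4 (10.9%, against 4.93% of all regions), to 6 without DIFF replicate 2 (12.8%, against 5.79%) and to 7 without PROLIF replicate 1 (15.2%, against 8.67%). It was 7 when fold enrichment took the place of −log10 p (15.2%, against 6.20%). When a peak had to cover at least 50% of a region, 29 regions were left to test and 3 were called higher in PROLIF (10.3%, against 10.1%). The following calls were kept under every alternative in which the region could be tested: 1 each at *Nes*, *Vim* and *Msi1* and 4 at *Msi2*.

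**Figure D3:**
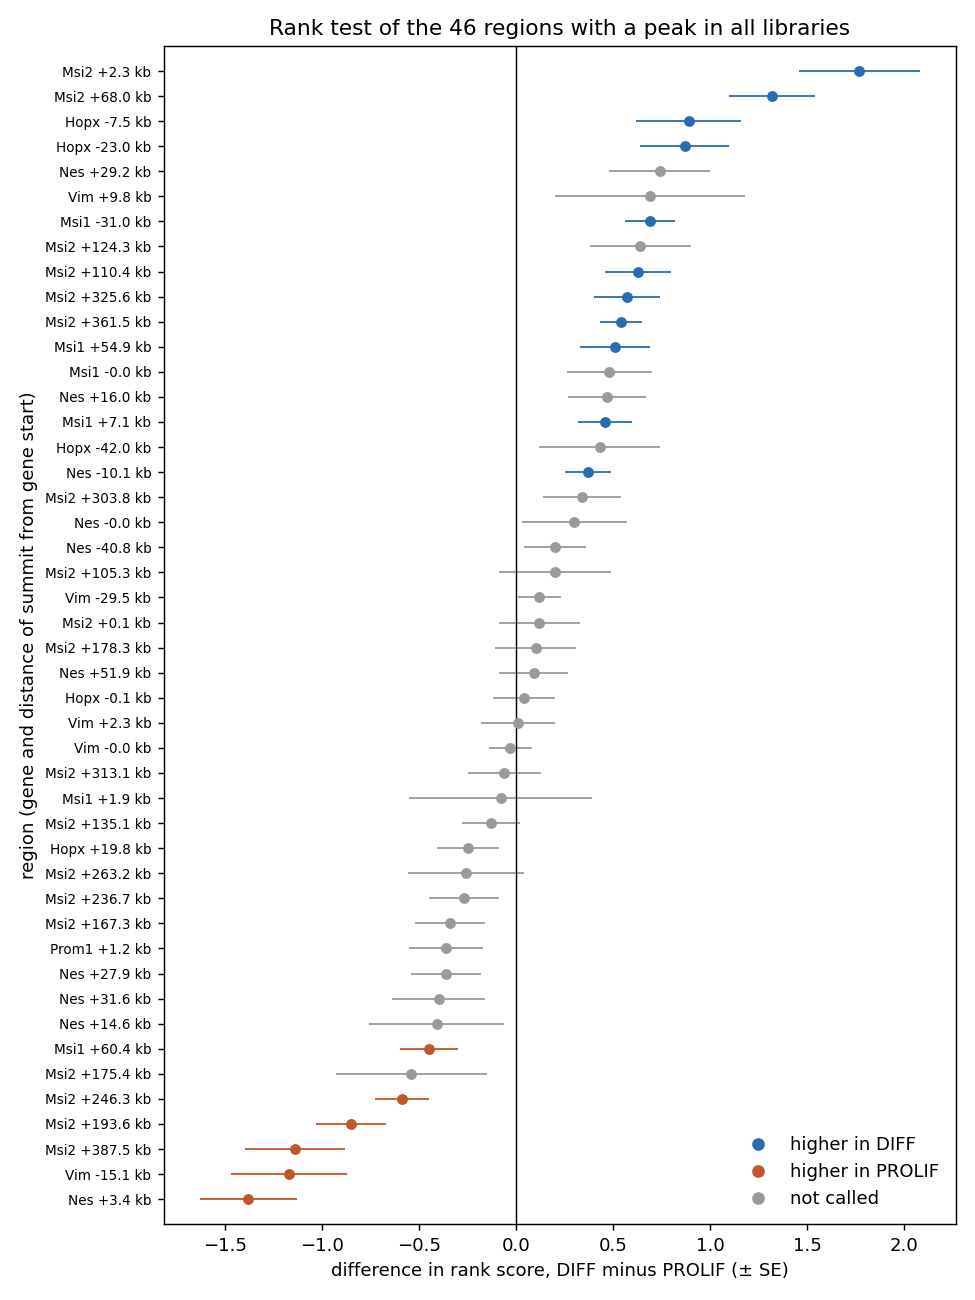
Difference in rank score, DIFF minus PROLIF, with its standard error (x) for the 46 window regions with a peak in all 6 libraries (y, gene and distance of the summit from the gene start). Called regions are coloured, and they run from -1.38 in intron 2 of *Nes* to 1.77 in intron 4 of *Msi2*.

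*Nes* had its clearest change in intron 2, where the region from 87973801 to 87974859 was stronger in PROLIF. Its percentiles were 86.6, 74.5 and 72.9 in PROLIF and 36.3, 32.3 and 65.6 in DIFF. The states did not overlap, and DIFF replicate 4 lay nearest to PROLIF. The score difference was -1.38 ± 0.25 (SE, n = 3, limma, adjusted p = 9.71e-04), and it ran from -1.62 to -1.15 over the alternatives. Fold enrichment over the local background of the same library was 9.16, 6.31 and 6.0 in PROLIF and 3.45, 3.80 and 4.92 in DIFF. From PROLIF to DIFF the mean percentile fell by 43.5 points among the libraries with lower input data numbers and fell by 25.6 among the others.

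At the start of *Nes* the order was not the same. The region from 87970745 to 87971437 had percentiles of 61.0, 54.7 and 29.4 in PROLIF and 53.9, 66.9 and 62.1 in DIFF. These ranges overlapped and no difference was called (score difference 0.30, limma, adjusted p = 0.468). Intron 1 held a weak region from 87972130 to 87972478 with a peak in PROLIF replicate 1 alone of that state, at 10.4, and in all DIFF libraries, at 21, 19.0 and 17.9. The intron 2 peaks also differed in width, with 1035, 1017 and 999 bp in PROLIF and 118, 223 and 480 bp in DIFF. Their near edge lay within 3 kb of the last *Nes* start site, at 87971129, in each PROLIF library, and 3053 bp or more from it in each DIFF library. The strongest peak within 3 kb of a *Nes* start site was therefore the one in intron 2 in PROLIF and the one at the gene start in DIFF. On that measure the promoter percentile was 78.0 ± 7.46 in PROLIF and 61.0 ± 6.56 in DIFF (SD, n = 3, difference -17.0, exact permutation p = 0.1, adjusted p = 0.300).

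**Figure D4:**
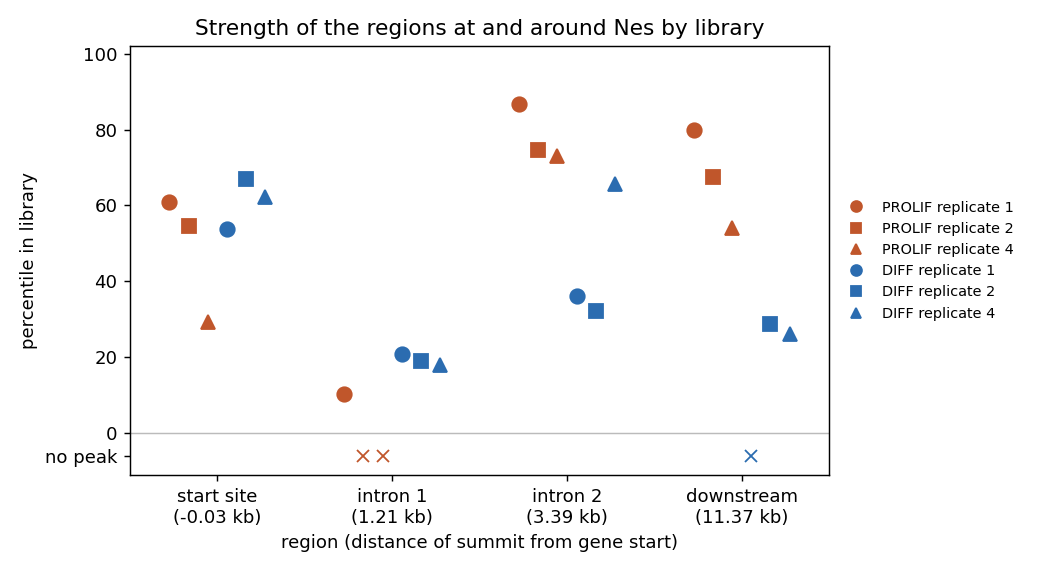
Percentile in its library (y) of 4 regions at and around *Nes* (x), 1 point per library, with a cross where a library had no peak. In intron 2 the PROLIF libraries lie at 72.9 or above and the DIFF libraries at 65.6 or below, while at the start site the states overlap.

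In the rest of the *Nes* window, a region upstream of the gene from 87960565 to 87961158 was called higher in DIFF. It was among the strongest of the windows in both states, at 90.8, 88.1 and 90.5 in PROLIF and 95.5, 95.2 and 94.0 in DIFF. The score difference was 0.37 ± 0.12 (SE, n = 3, limma, adjusted p = 0.0394), and the call was lost without PROLIF replicate 1 or 2, without DIFF replicate 1 or 2, by fold enrichment and with the cover of 50%. Downstream of the gene, from 87982054 to 87983171, PROLIF libraries had percentiles of 80.0, 67.6 and 54.2, and DIFF had no peak in replicate 1 and 28.8 and 26.1 in the others. That region was not tested, because 1 library had no peak, and it was singled out after its values were seen. The other 7 regions shared by all libraries had score differences from -0.41 to 0.74 and were not called. With the replicate block 2 of these were called higher in DIFF. One, from 88000007 to 88000780, overlapped a start of the neighbouring gene *Bcan*. It had 52.9, 32.3 and 48.1 in PROLIF and 60.2, 64.4 and 77.1 in DIFF (limma, adjusted p = 0.0564, and 0.0267 with the block). The other lay from 87986852 to 87987366, with 79.0, 57.3 and 63.9 against 82.5, 83.6 and 78.0 (limma, adjusted p = 0.0977, and 0.0451 with the block).

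*Vim* had no called difference at its promoter and 1 at a distal region. At the promoter, from 13573267 to 13574682, the peak was among the strongest in every library, at 94.3, 93.4 and 89.4 in PROLIF and 93.1, 91.8 and 94.0 in DIFF (score difference -0.03, limma, adjusted p = 0.878). A region in intron 2 of *Vim*, from 13575691 to 13576487, had percentiles of 77.0, 75.2 and 56.3 in PROLIF and 77.3, 67.3 and 75.5 in DIFF, and was not called either. The called region was intergenic, from 13558588 to 13559114, with its summit 15.10 kb before the gene start and 13920 bp from the nearest start site, that of *Trdmt1*. It had 67.9, 56.1 and 49.9 in PROLIF and 29.3, 16.9 and 42.6 in DIFF. All PROLIF libraries lay above all DIFF libraries (score difference -1.17 ± 0.30, SE, n = 3, limma, adjusted p = 0.0114).

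At *Prom1* little was shared by all libraries, and the 3.84 regions per 100 kb of its window were the fewest of the 6 genes. The region at its start, from 44100384 to 44101852, was the one found in all 6 libraries. Its percentiles were 76.1, 78.6 and 69.3 in PROLIF and 73.8, 65.7 and 67.1 in DIFF. The ranges overlapped (score difference -0.36, limma, adjusted p = 0.197). Of the other 7 regions, 1 was the PROLIF-only region given above, and 1 had a peak in a single library.

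*Hopx* was open at both of its groups of start sites with no called difference. The region at the gene start, from 77114863 to 77115938, had 84.9, 78.8 and 69.4 in PROLIF and 83.4, 77.9 and 82.4 in DIFF (limma, adjusted p = 0.890). The region 19.80 kb into the gene, from 77094562 to 77095503 at a later start site, had 81.3, 76.9 and 77.5 in PROLIF and 76.3, 76.3 and 73.6 in DIFF (limma, adjusted p = 0.298). Upstream of the gene, 2 regions near start sites of long noncoding RNAs were called higher in DIFF. One lay from 77137624 to 77138453, 1799 bp from the start of *Chaer1*, with 54.5, 61.0 and 35.5 in PROLIF and 69.8, 74.3 and 83.3 in DIFF (score difference 0.87 ± 0.23, SE, n = 3, limma, adjusted p = 0.0138). Without DIFF replicate 4 its call was lost (limma, adjusted p = 0.0862). The other, from 77122248 to 77123284, overlapped a start of *Gm15831* and had 71.3, 75.3 and 29.1 in PROLIF and 81.6, 83.4 and 86.8 in DIFF (score difference 0.89 ± 0.27, SE, n = 3, limma, adjusted p = 0.0252). PROLIF replicate 4 stood far below the rest there, and without it the score difference was 0.45 and was not called. That call was lost without any 1 of the DIFF libraries too. The 1 region shared by all 6 libraries that lay over 3 kb from a start site, from 77156974 to 77157342, had percentiles from 26.0 to 60.6 and was not called.

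In the *Msi1* window, 3 regions were called higher in DIFF and 1 higher in PROLIF. The region at the gene start, from 115429273 to 115430029, was not among them, at 59.9, 57.4 and 41.8 in PROLIF and 69.0, 64.4 and 74.4 in DIFF (score difference 0.48, limma, adjusted p = 0.126). The called region with the lowest adjusted p lay upstream, from 115398219 to 115399048, in an intron of the long noncoding RNA *Gm13832* and 23452 bp from the nearest start site. It had 79.9, 71.4 and 74.5 in PROLIF and 90.1, 89.2 and 91.5 in DIFF, with no overlap (score difference 0.69 ± 0.13, SE, n = 3, limma, adjusted p = 0.00168). In intron 6 a region from 115436227 to 115437189, at a start of the antisense RNA *4930430O22Rik*, was higher in DIFF at 93.3, 93.4 and 96.9 against 88.1, 92.1 and 83.4 (score difference 0.46 ± 0.14, SE, n = 3, limma, adjusted p = 0.0298). By fold enrichment its score difference was -0.13, so its direction rested on the measure of strength, and the call was lost without PROLIF replicate 1 or 4 and without DIFF replicate 2 or 4.

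The other called regions of the *Msi1* window lay near its far edge and were the least stable. The region at the start of *Sirt4*, a mitochondrial sirtuin, from 115484093 to 115484860, was higher in DIFF (0.51 ± 0.18, SE, n = 3, limma, adjusted p = 0.0475). Percentiles there were 81.8, 84.0 and 60.8 in PROLIF and 89.8, 85.7 and 89.9 in DIFF. The region from 115489217 to 115490789 overlapped a start of *Gm24265*. It was higher in PROLIF, at 94.9, 89.9 and 96.1 against 89.0, 85.3 and 91.8, with overlapping ranges (-0.45 ± 0.15, SE, n = 3, limma, adjusted p = 0.0363). Both calls were lost by fold enrichment and without any 1 of the libraries other than PROLIF replicate 2.

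*Msi2*, with its long introns, held 8 of the 17 called regions, 5 higher in DIFF and 3 higher in PROLIF. Its start region, from 88718003 to 88719004, was not called, at 70.2, 71.3 and 74.3 in PROLIF and 77.1, 64.7 and 85.8 in DIFF (score difference 0.12, limma, adjusted p = 0.729). A region close by in intron 4, from 88715992 to 88716452, showed the widest gap of all the window regions tested. It was weak in PROLIF, at 29.4, 11.1 and 12.4, and stood at 63.0, 63.1 and 76.5 in DIFF (score difference 1.77 ± 0.31, SE, n = 3, limma, adjusted p = 7.56e-04). Fold enrichment there was 3.47, 2.86 and 3.17 in PROLIF and 4.57, 5.53 and 5.65 in DIFF. In intron 5, from 88650389 to 88650835 and 60242 bp from the nearest start site, percentiles were 53.7, 37.5 and 26.0 in PROLIF and 74.9, 77.4 and 79.8 in DIFF (1.32 ± 0.22, SE, n = 3, limma, adjusted p = 6.32e-04). Neither pair of ranges overlapped.

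In *Msi2*, 3 further intronic regions were higher in DIFF, with smaller score differences. The one from 88607811 to 88608365 in intron 5 had 68.6, 65.3 and 68.7 in PROLIF and 83.7, 79.9 and 87.8 in DIFF, and its call was lost without DIFF replicate 4. In intron 9, from 88392598 to 88393172, the values were 67.9, 65.9 and 66.8 against 78.7, 85.7 and 82.9, and the call was lost without PROLIF replicate 1 or 2 or DIFF replicate 2 or 4. In intron 11, near a start of the antisense RNA *Gm15893*, the region from 88356570 to 88357595 had 88.1, 87.6 and 83.8 in PROLIF and 94.6, 94.2 and 95.3 in DIFF, and the call was lost by fold enrichment. Their score differences were 0.63, 0.57 and 0.54, in that order (limma, adjusted p = 0.0132, 0.0277 and 0.00267).

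Another 3 regions of the *Msi2* window were higher in PROLIF. In intron 6, from 88524505 to 88525526, the percentiles were 88.0, 86.8 and 84.4 in PROLIF and 76.8, 56.7 and 75.1 in DIFF (-0.85 ± 0.18, SE, n = 3, limma, adjusted p = 0.00331). In intron 7, from 88471783 to 88472484, they were 90.9, 90.2 and 87.0 against 84.2, 73.2 and 82.1 (-0.59 ± 0.14, SE, n = 3, limma, adjusted p = 0.00860), a call that was lost by fold enrichment. Beyond the end of the gene, from 88330605 to 88331397, they were 77.8, 66.8 and 65.1 against 37.7, 26.4 and 61.7 (-1.14 ± 0.26, SE, n = 3, limma, adjusted p = 0.00569). DIFF replicate 2 was the lowest of its state in all 3. Among the shared *Msi2* regions over 3 kb from a start site, the one whose lowest percentile was highest was not called. It lay in intron 6 from 88582527 to 88583769 and had percentiles from 78.7 to 87.1 over the 6 libraries (score difference -0.13, limma, adjusted p = 0.584).

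**Figure D5:**
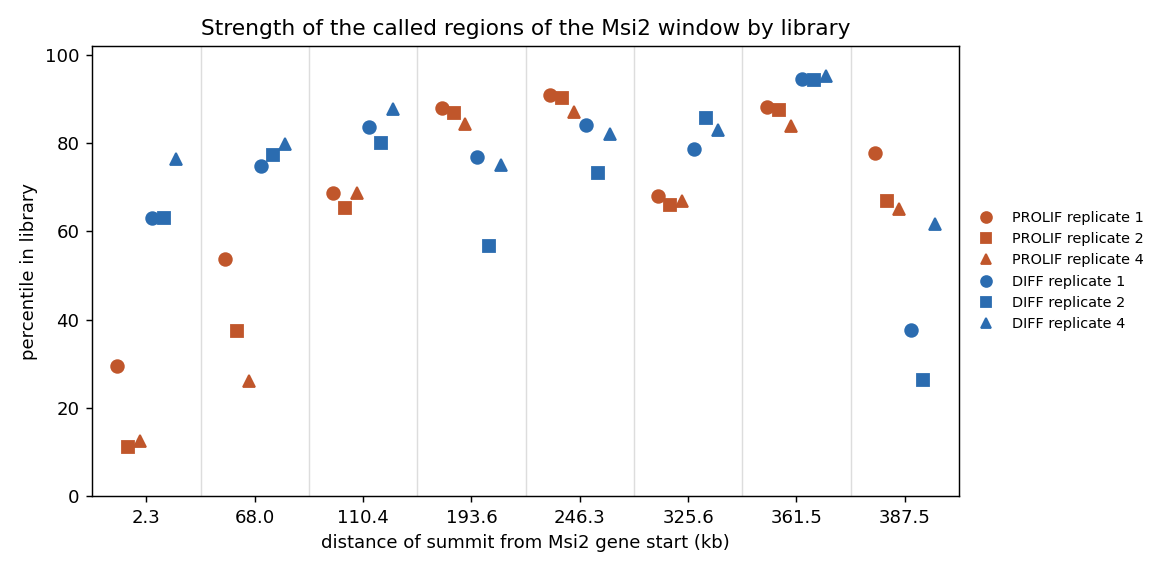
Percentile in its library (y) of the 8 called regions of the *Msi2* window, by distance of the summit from the gene start in kb (x), 1 point per library. DIFF lies above PROLIF at 5 distances, by most at 2.3 kb, and below it at 193.6, 246.3 and 387.5 kb.

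The promoters of the 6 genes were all open in all libraries, as were 64.4% of protein-coding genes. Ordered by the mean PROLIF percentile of the strongest peak within 3 kb of a start site, *Vim* (92.4 ± 2.62) stood first, then *Msi1* (87.9 ± 4.38), *Hopx* (80.4 ± 3.95), *Nes* (78.0 ± 7.46), *Prom1* (74.6 ± 4.79) and *Msi2* (71.9 ± 2.17, SD, n = 3 for each). The ranges of all neighbours in that order overlapped. In DIFF, *Msi1* (94.5 ± 2.07) and *Vim* (92.9 ± 1.09) led and *Nes* (61.0 ± 6.56) was last. The permutation test could not call a promoter, since its smallest p is 0.1. *Nes* and *Msi1* reached that value, with ranges that did not overlap between the states (exact permutation p = 0.1 for each, adjusted p = 0.300). The share of all genes with such ranges is not given here. The *Nes* value set the intron 2 peak in PROLIF against the gene start peak in DIFF. At the gene start itself the ranges overlapped, with means of 48.3 in PROLIF and 61.0 in DIFF. The *Msi1* value, 6.68 points higher in DIFF, was that of its intron 6 region, which the rank test called.

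Related genes were counted at their promoters, and every gene of each list was counted. The lists themselves were chosen with earlier results of these data known. Of 12 other intermediate filament genes, 7 had a promoter peak in all 6 libraries and *Krt18*, an epithelial keratin, in none. The rank test could be made at 7 of the 12. Among these *Gfap*, the filament of astrocytes and adult neural stem cells, was called higher in DIFF (score difference 0.80, limma, adjusted p = 0.00133), and none was called higher in PROLIF. All 14 other stem and progenitor markers had a promoter peak in all 6 libraries. *Cd44*, a hyaluronan receptor, and *Tnc*, the matrix protein tenascin C, were called higher in PROLIF (-1.07 and -0.78, limma, adjusted p = 1.45e-04 and 8.52e-04). *Aldoc*, an aldolase of astrocytes, was called higher in DIFF (0.78, limma, adjusted p = 0.0211). The other 11 were not called, and their score differences ran from -0.28 to 0.28. Over all regions tested, 9.80% were called higher in DIFF and 11.2% higher in PROLIF. The counts of these short lists were not tested against those shares. Of 7 partners and targets, 5 had a promoter peak in all libraries, among them *Numb* with percentiles from 96.3 to 98.8. *Lin28a* had a promoter peak in no library, and no call was made in this list.

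Genes whose 6 promoter percentiles were most like those of each gene were sought among 14110 other protein-coding genes, by Euclidean distance in percentile points. Those nearest to *Nes* were *Pllp* (10.4) and *Cavin2* (10.8), and to *Vim* *Car2* (1.06) and *Ppp1r12c* (1.40). For *Prom1* they were *Gnal* (5.22) and *Tgfa* (7.01), and for *Hopx* *Dgke* (3.43) and *Arsb* (3.50). *Gm10642* and *Mindy2* were equally near to *Msi1* (2.63) and had the same lowest and highest percentiles as one another, and *Plxdc1* (5.57) and *Ctnnb1* (6.77) were nearest to *Msi2*.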

How the data were processed

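Peak lists of 6 ATAC-seq libraries, 3 PROLIF and 3 DIFF by the labels, were analysed. The authors mapped reads to GRCm38 (mm10) with Bowtie2 and called narrow peaks with MACS2 in each library separately. Software versions, transposase shifts and blacklists are not given in the sources used here, and each can move peak edges. The deposited score is 10 times the −log10 q, the deposited fold enrichment is a ratio to the local background, and the deposited −log10 p and q values are the caller's. Read totals were not used here, and weaker peaks can pass where a library is deeper.

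Genes and start sites came from GENCODE M21, and introns were numbered on the protein-coding transcript with the most exons from the gene start. Regions were peaks merged at an overlap of 1 bp. Normal scores of the ranks were tested with limma 3.58.1 (R 4.3.3, trend, tested on simulated data) at an adjusted p of 0.05, and single values by exact permutation of the states, two-sided. Tables and figures used Python 3.11.15.

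The study describes paired ATAC-seq on the same cultures in both states, where the pairing may be that with RNA-seq. It does not match libraries of the 2 states by their number. Over the 40102 regions, deviations from the state means correlated at 0.142, 0.154 and 0.126 between libraries of the same number (1, 2 and 4) and at -0.106 to -0.0331 between different numbers, and the numbers were read as pairs. The fit without the block is the main one, and the permutation tests above ignore the pairs too. By exact sign flips of the pairs, p was 0.750 for window peaks and 0.250 for the *Nes* and *Msi1* promoters. The smallest p of that test is 0.25.

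Regions given with values were those at the strongest promoter peaks, those in *Nes*, every called region, the strongest state-only region of each gene and state, and the shared distal region of each gene whose lowest percentile was highest. Members, lists and rules were chosen with earlier results of these data known. Alternatives were peaks with q of 0.001 or less, lists cut to 60006 peaks, windows of 10 kb, peaks covering 50% or more of a region, fold enrichment as strength, the replicate block and each library left out.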

Additional observations from a re-analysis of the deposited data

How the results depend on the processing

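When peaks had to cover 50% or more of a region, 29 window regions were in all 6 libraries, and 3 were called higher in PROLIF. Windows of 10 kb left 1 PROLIF-only region, and lists of equal length left 2 DIFF-only regions. The replicate block gave 5 PROLIF-only and 15 DIFF-only regions, and with it all 17 called regions kept their call. With the block 13 regions were called higher in DIFF (28.3%, against 13.4% of all regions), the 2 further ones in the *Nes* window. By fold enrichment 7 regions were called higher in DIFF. The promoter percentile difference changed sign with lists of equal length at *Vim* (-0.353) and *Hopx* (-1.59), and by fold enrichment at *Msi1* (-0.951) and *Msi2* (-0.812). The score difference of the *Msi1* intron 6 region was -0.13 by fold enrichment. The cause was not tested.

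Leaving out 1 library gave differences in window peaks from 4.67 to 16.2, 46 to 54 regions in all remaining libraries, and 3 to 4 PROLIF-only and 5 to 6 DIFF-only regions. Calls higher in DIFF then numbered 5 to 12 (10.9% to 22.2%, against 4.93% to 8.67% of all regions). Those higher in PROLIF numbered 5 to 7 (9.26% to 14.6%, against 8.30% to 9.61%). Promoter differences ran from -20.0 to -12.8 at *Nes*, from -0.932 to 1.53 at *Vim*, from -8.46 to -3.82 at *Prom1*, from -0.634 to 3.07 at *Hopx*, from 4.43 to 8.81 at *Msi1* and from -1.02 to 9.56 at *Msi2*. Signs changed without PROLIF replicate 4 at *Vim* and *Hopx*, without DIFF replicate 1 at *Hopx* (-0.249) and without DIFF replicate 4 at *Msi2*. Over 182 values of the 17 called regions, 146 kept the call, 35 kept the direction alone and 1 changed sign. A region with no peak in some library could not be ranked, so what differs most between the states may fall outside the rank test.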

Other observations

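Some *Msi2* regions with a peak in 5 of the 6 libraries had percentiles that did not overlap between the states where a peak was called. They were chosen after their values were seen. In intron 5, from 88605048 to 88605537, the percentiles were 83.3, 77.2 and 76.5 in PROLIF, while DIFF had 5.37 in replicate 1, no peak in replicate 2 and 4.05 in replicate 4. Another region of intron 5, from 88692468 to 88692741, had 80.1, 63.1 and 55.1 in PROLIF, no peak in DIFF replicate 1 and 16.9 and 20.0 in the other DIFF libraries. The reverse order was seen in intron 5 from 88702160 to 88702669, with 73.9, 81.5 and 84.4 in DIFF, 53.7 and 54.0 in PROLIF replicates 1 and 2 and no peak in PROLIF replicate 4. In intron 6, from 88482355 to 88483010, DIFF had 49.2, 63.1 and 71.1 and PROLIF had 29.2 and 5.95 in replicates 1 and 2 and no peak in replicate 4. None of these regions was tested, since each lacked a peak in 1 library.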
